A study of Mus musculus with 4 samples.

Results

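The respiratory chain and ATP synthase genes were taken as those whose single symbol in the array's annotation begins with Nduf, Uqcr, Atp5 or Cox followed by a digit, together with Sdha, Sdhb, Sdhc, Sdhd, Cyc1 and Cycs. The rule found 100 genes, measured by 202 probe sets, among the 18193 genes on the array. They were 44 genes of complex I, 4 of complex II, 9 of complex III, 25 of complex IV, 17 of complex V, and Cycs, which carries electrons between complexes III and IV. The groups were Npac RNAi (2 arrays) and control RNAi (2 arrays). Both were cultures of the mouse embryonic stem cell line E14, grown in 15% serum with LIF, transfected with short hairpin RNA, put under puromycin after 24 hours and harvested after 3 days of selection. Npac is the older name of Glyr1, which encodes a chromatin protein that binds nucleosomes of transcribed genes. The treatment text is the same for every sample and names an Npac hairpin. The labels describe neither the hairpin of the control cells nor whether replicate arrays came from separate cultures, so p-values measure only the spread between these arrays, which may be technical. The cultures were bulk samples, in which fewer cells of a type and less RNA per cell cannot be told apart. Each value below is a log2 value per gene and array, a difference is Npac RNAi minus control RNAi with limma's standard error (SE), and a gene was called at a limma adjusted p under 0.05 over all 18193 genes.

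The chain burns reduced cofactors in the inner mitochondrial membrane. Complexes I and II feed electrons into ubiquinone, complex III passes them to cytochrome c, complex IV hands them to oxygen, and the proton gradient built on the way drives ATP synthase, complex V. Most subunits are encoded in the nucleus, a few in the mitochondrial genome, and dedicated assembly factors build the complexes without being part of the finished enzymes. Mouse embryonic stem cells are known for using both glycolysis and respiration, with the balance shifting as they leave the naive state.

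The targeted gene read 10.23 and 10.20 on the Npac RNAi arrays, against 11.30 and 11.32 on the control RNAi arrays, so the Glyr1 transcript was reduced and not absent (log2 difference -1.09, SE 0.0458, limma adjusted p = 0.00101). The cells carried stem cell markers in both groups. Of 8 such markers, 6 were called lower and 0 higher, and their summed signal was 15.79 to 15.81 in Npac RNAi and 16.18 in control RNAi on the log2 scale. Of 8 trophoblast markers 7 were called higher and 0 lower, and their summed signal was 15.37 to 15.38 in Npac RNAi against 13.26 to 13.28 in control RNAi. Of 8 fibroblast markers 0 were called higher and 2 lower, the sum was 9.49 to 9.58 against 9.68 to 9.86, and the fibroblast collagen gene Col1a1 read 5.54 on both Npac RNAi arrays, against 5.54 and 5.65, near the 25th percentile of all genes. The part of these marker changes in the results below was not tested.

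Transcripts of oxidative phosphorylation differed little between Npac RNAi and control RNAi. Of the 100 genes, 13 were called higher and 17 lower in Npac RNAi, and 70 were not called. Over all genes 40.8% were called, 22.1% higher and 18.7% lower. By this fit the share of respiratory genes called lower was near that background and the share called higher was below it. Of the 1820 genes with the highest signals 26.0% were called higher and 23.6% lower, against 12.2% and 10.8% of the respiratory genes among them. With a trended variance prior 35 of the 100 were higher and 34 lower. All 18193 genes then gave 4742 and 3757, smaller shares in both directions. The median difference was 0.00 over the 100 genes and -0.04 over all genes. The median size of the difference, whatever its direction, was 0.14 for respiratory genes, 0.21 for all genes and 0.18 for the 1820 genes with the highest signals, where 74 of the 100 lay. On the deposited values no respiratory gene changed 2-fold, while Cox7a1 (-1.11) and Cox7a2l (-1.06) passed that size with spike-in scaling. As deposited, 1 called gene (Ndufaf3) differed by at least 1.5-fold and 7 by at least 1.25-fold. For 62 of the 70 genes without a call the 95% interval of the difference lay inside 1.25-fold in both directions. The other 8, with wider intervals and named for that after their values were seen, were Ndufs5, Cox11, Cox15, Ndufa4l2, Ndufb4, Cox4i2, Cox6a2 and Cox8b, the last 5 with signals below the median of all genes (7.49). These intervals are those of the probe set that represents each gene. Other probe sets above that median gave, for example, -0.35 for Cycs, -0.25 for Sdha and 0.24 for Cox6a1, all without a call here.

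**Figure D1:**
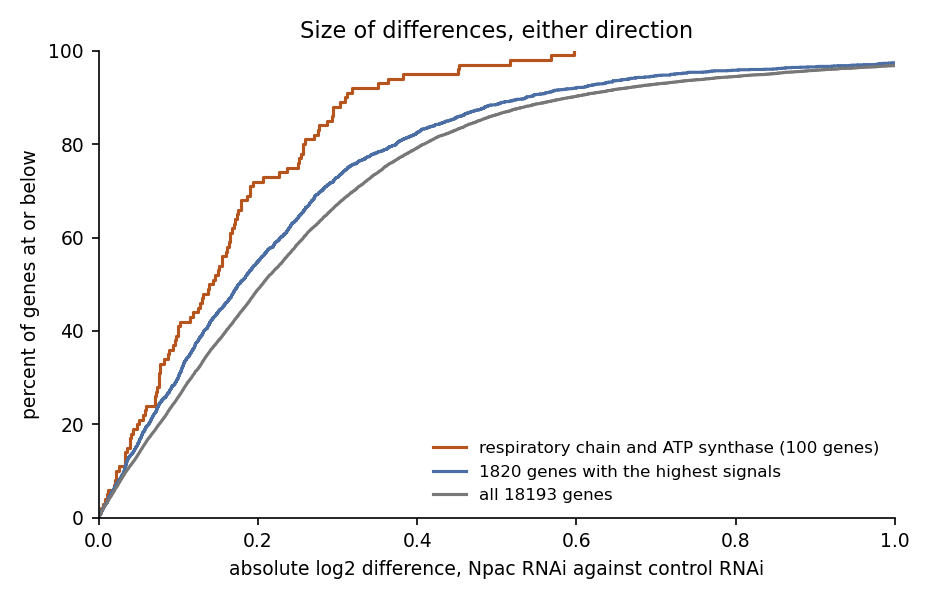
Cumulative percent of genes (y axis) at or below each absolute log2 difference between Npac RNAi and control RNAi (x axis) for the 100 respiratory chain and ATP synthase genes, the 1820 genes with the highest signals and all 18193 genes. Of the respiratory genes 72 lay under 0.2, against 48.9% of all genes, and 3 reached 0.5, against 13.7% of all genes and 11.5% of those 1820.

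Within each gene the arrays separated the groups more often than the test called them. The groups did not overlap for 87 of the 100 genes, 42 higher and 45 lower in Npac RNAi, where all genes gave 74.2%, 34.1% higher and 40.1% lower. Genes of like signal gave like shares: 85.7% of all genes at or above the median level and 89.1% of the 1820 with the highest signals. The respiratory genes among those 1820 gave 87.8%. Directions depended on how arrays were scaled. As deposited the 100 genes gave 13 higher and 17 lower, after quantile normalization 12 and 20, and after cyclic loess 17 and 18. With each array centred on its median they gave 3 and 44, and with arrays scaled on the poly-A spike-in transcripts 0 and 97. All 18193 genes gave 4020 higher and 3405 lower as deposited, 2843 and 7175 with centring, and 906 and 14895 with spike-in scaling. The turn to lower calls under these 2 scalings was thus shared with the whole array. Centring shifted every difference by a constant 0.14 downward and spike-in scaling by 0.54, and such a constant shift leaves the distance between any pair of genes as it was. Calls also depended on single arrays. Without any 1 of the 4 arrays 2 or 3 genes were higher and 2 to 7 lower, and only Ndufaf3, Ndufs4, Cox7a1 and Cox7a2l kept their calls in all 4 of those fits, which have fewer degrees of freedom.

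**Figure D2:**
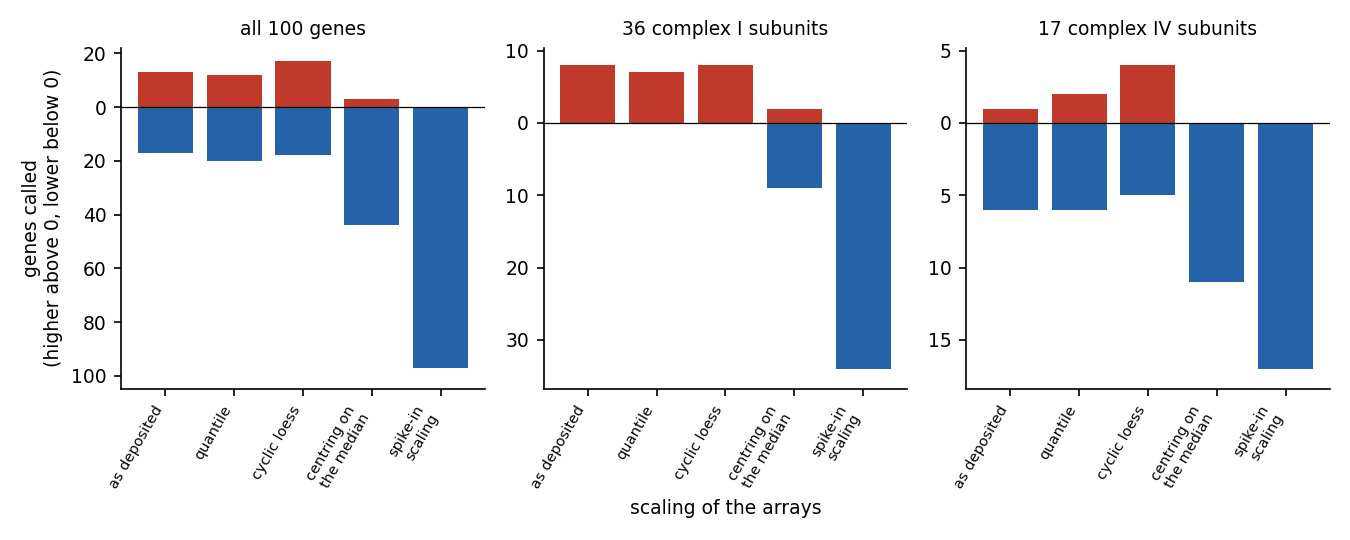
Number of genes called higher (red, above 0) and lower (blue, below 0) in Npac RNAi under 5 scalings of the arrays, for all 100 genes, the 36 complex I subunits and the 17 complex IV subunits. The 13 higher and 17 lower genes of the deposited values become 3 and 44 after centring on the median and 0 and 97 with spike-in scaling.

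By complex the calls were uneven, where all genes gave 22.1% higher and 18.7% lower. The higher share was 22.2% in complex I subunits, near that of all genes, and 11.8% in complex V. The lower share was 62.5% in the 8 complex I assembly factors, 35.3% in complex IV subunits and 17.6% in complex V. Complex I subunits gave 8 higher and 0 lower of 36, with a median difference of 0.11 that was 0.042 with probe sets averaged, -0.032 with median centring and -0.43 with scaling on the spike-ins, and complex I assembly factors gave 1 higher and 5 lower of 8, with a median of -0.22. Complex II gave 0 higher and 2 lower of 4, complex III 0 and 1 of 9, complex IV subunits 1 and 6 of 17 (median -0.17), complex IV assembly factors 1 and 0 of 8 (median -0.02), and complex V 2 and 3 of 17 (median 0.02). Because every array carries all these genes, their distances are free of a constant shift. The mean signal of the complex I subunits exceeded that of the complex IV subunits by 1.06 and 1.12 on the Npac RNAi arrays and by 0.85 and 0.87 on the control RNAi arrays. The distance was wider on both Npac RNAi arrays, by 0.23 in the mean and by 0.28 between the median differences. The distance between the medians depended on the probe sets: it was 0.18 with probe sets averaged and 0.34 with the probe set of the largest interquartile range, and 0.20 to 0.28 without 1 array. The median of the complex IV subunits was -0.10 without Npac RNAi array 2. With genes under the median level removed, 13 complex IV subunits were left, without the dim Cox4i2, Cox6a2, Cox7b2 and Cox8b. Their median was -0.09 and the distance was 0.20. The 17 also hold tissue isoforms and Cox7a2l, and the lowest values were those of Cox7a1 (-0.57) and Cox7a2l (-0.52). The tissue isoform Cox6b2 was the highest (0.32). Common subunits went both ways: Cox4i1 (0.16), Cox5b (0.08), Cox6a1 (0.17) and Cox6b1 (0.15) lay above 0. Cox5a (-0.17), Cox6c (-0.10), Cox7a2 (-0.08), Cox7c (-0.31) and Cox8a (-0.09) lay below it. The distance was not taken without the tissue isoforms, so it need not hold for the common subunits. No test of this distance was made, since the groups of genes were set against each other after their values were known.

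**Figure D3:**
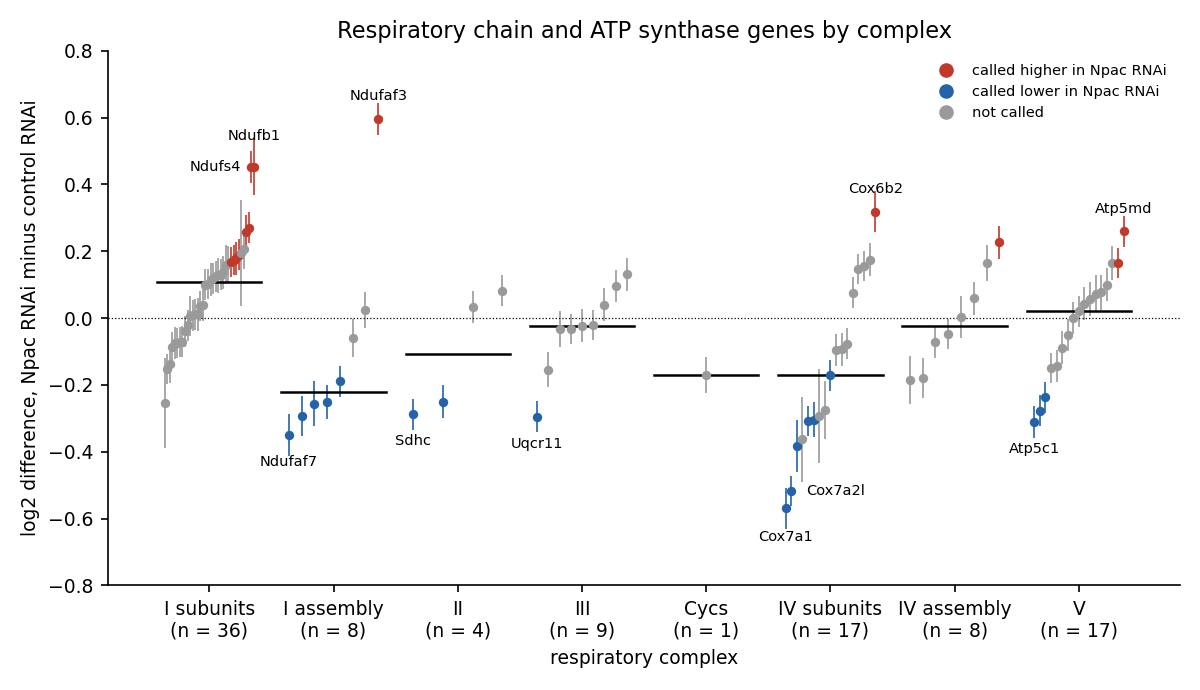
Log2 difference, Npac RNAi minus control RNAi, of each of the 100 genes (points, bars are SE) by complex, with assembly factors apart for complexes I and IV, and black lines at the medians. Red points were called higher in Npac RNAi, blue points lower and grey points were not called. The 8 called complex I subunits all lie above 0, while 5 of the 6 called complex I assembly factors and 6 of the 7 called complex IV subunits lie below it. Over all genes 22.1% were called higher and 18.7% lower.

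Promoters were read for what the genes share beyond their names. RefSeq promoters (GRCm38.p6, 250 bases before to 50 after the start) were found for 81 of the 100 genes. Short motifs of 3 factors known to act on respiratory genes were searched on both strands: GCGC, any base and then TGCGC for NRF1, CCGGAAG for ETS factors such as GABPA, and ATGGCGGC for YY1. The 81 genes had 87 promoters, and a gene was counted if any of its promoters held the letters. The NRF1 letters stood in 17 of 81 genes (21%), against 5.19% of 27025 genes with a promoter and 7.17% of the 17492 protein-coding ones. The ETS letters stood in 23 (28.4%), against 9.93% and 12.9%, and the YY1 letters in 8 (9.88%), against 2.6% and 3.5%. The median GC content was 59%, against 52.8% for all genes and 56.3% for protein-coding genes. The median count of the letters CG was 20, against 7 and 13, and each of the 3 motifs holds these letters. Of 12 genes called higher that had a promoter, 1 held the NRF1 letters and 3 the ETS letters. Among those called lower 3 and 4 of 14 did, and among those not called 13 and 16 of 55. Motif matches are a description of these letters and not of binding. Promoters of 4 called genes from different complexes follow, 5′ to 3′ on the gene's strand, with motif matches in capitals.
Sdhd, complex II, lower in Npac RNAi (chr9:50603800-50604099, minus strand): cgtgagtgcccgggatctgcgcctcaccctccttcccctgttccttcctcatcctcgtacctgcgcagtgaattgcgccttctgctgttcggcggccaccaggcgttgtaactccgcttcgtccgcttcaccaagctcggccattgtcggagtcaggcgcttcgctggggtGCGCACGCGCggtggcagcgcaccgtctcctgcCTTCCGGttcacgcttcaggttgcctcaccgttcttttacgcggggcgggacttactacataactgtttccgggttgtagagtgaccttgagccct
Uqcr11, complex III, lower in Npac RNAi (chr10:80406772-80407071, minus strand): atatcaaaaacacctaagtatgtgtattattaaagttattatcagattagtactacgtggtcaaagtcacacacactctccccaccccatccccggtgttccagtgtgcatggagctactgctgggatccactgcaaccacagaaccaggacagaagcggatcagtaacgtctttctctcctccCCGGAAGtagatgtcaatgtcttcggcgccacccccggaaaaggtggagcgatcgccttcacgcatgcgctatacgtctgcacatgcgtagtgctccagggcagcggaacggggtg
Ndufs4, complex I, higher in Npac RNAi (chr13:114388045-114388344, minus strand): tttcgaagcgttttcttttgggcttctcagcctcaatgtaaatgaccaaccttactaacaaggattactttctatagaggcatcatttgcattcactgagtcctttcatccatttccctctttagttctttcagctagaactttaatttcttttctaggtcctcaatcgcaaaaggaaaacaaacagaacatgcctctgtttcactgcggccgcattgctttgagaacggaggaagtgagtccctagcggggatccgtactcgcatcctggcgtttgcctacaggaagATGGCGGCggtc
Cox7a2l, complex IV, lower in Npac RNAi (chr17:83514284-83514583, minus strand): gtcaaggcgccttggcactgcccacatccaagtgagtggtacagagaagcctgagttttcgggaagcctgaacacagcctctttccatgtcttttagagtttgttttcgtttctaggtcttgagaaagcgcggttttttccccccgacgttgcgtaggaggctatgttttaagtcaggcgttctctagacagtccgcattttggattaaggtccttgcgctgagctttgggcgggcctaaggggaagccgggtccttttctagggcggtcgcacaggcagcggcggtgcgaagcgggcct
The Sdhd promoter held an NRF1 match beginning 79 bases before the start and an ETS match beginning 46 bases before it. The Uqcr11 promoter held an ETS match beginning 66 bases before the start, the Ndufs4 promoter held the YY1 letters just inside the transcript, and none of the 3 motifs was in the Cox7a2l window.

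Complex I is the NADH dehydrogenase that admits most electrons to the chain. Its 8 subunits called higher, of 36, are a share near the 22.1% of all genes called higher. The differences of Ndufb1 and Ndufs4 were the largest among its subunits on the deposited values. Ndufb1, a small subunit of the membrane arm named after its values were seen, read 7.91 and 8.05 in Npac RNAi against 7.45 and 7.60 in control RNAi (0.45, SE 0.0858, limma adjusted p = 0.0195). Ndufs4, an accessory subunit whose loss causes Leigh syndrome in people, read 11.23 and 11.26 in Npac RNAi against 10.81 and 10.78 in control RNAi, without overlap between the groups (log2 difference 0.45, SE 0.0473, limma adjusted p = 0.00505). Its probe sets disagreed: of the 3 with a signal no lower than the median gene, 2 gave 0.45 and 1 gave -0.41, and the average over all its probe sets was 0.06. Ndufa8, an accessory subunit with a cysteine motif for import into the intermembrane space, read 11.73 on both Npac RNAi arrays, against 11.46 on both control RNAi arrays, a difference of 0.27 (SE 0.045, limma adjusted p = 0.0142). Ndufa1, a small membrane subunit with the brightest probe set of this complex, read 13.16 on both Npac RNAi arrays against 13.05 and 13.02 in control RNAi and was not called (0.12, limma adjusted p = 0.0965).

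The other called subunits of complex I were named after their values were seen and were higher by 0.17 to 0.26. They were Ndufb11 (0.26) and Ndufb6 (0.19) of the membrane arm, Ndufs1 (0.17), a core subunit that holds iron-sulfur clusters, Ndufs7 (0.18), which holds the cluster next to ubiquinone, and Ndufa13 (0.17), also known as GRIM-19. Ndufb11 was higher in all 3 of its bright probe sets (0.26 to 0.39), while Ndufb6 was 0.19 in one and -0.01 in the other. Ndufa13, Ndufs1 and Ndufs7 had adjusted p of 0.0463, 0.0432 and 0.0495, close to the threshold. The calls on Ndufa8, Ndufb11, Ndufb6, Ndufs1, Ndufs7 and Ndufa13 were lost without any 1 of the 4 arrays, with differences then between 0.15 and 0.29, and of those 4 fits the call on Ndufb1 held only without Npac RNAi array 1. None of the 36 subunits was called lower by the fit on the deposited values used here, but 6 were with a trended variance prior, 2 without moderation and 2 with genes under the median level removed. The lowest difference was that of Ndufa4l2 (-0.25, SE 0.134, limma adjusted p = 0.196), a hypoxia-inducible relative of Ndufa4 that was called without Npac RNAi array 1 (-0.44) and with spike-in scaling (-0.79). Ndufa4 itself, now assigned to complex IV by biochemical work, read 12.97 and 12.98 in Npac RNAi against 13.03 and 13.05 (-0.07, limma adjusted p = 0.268). The subunit counts of 8 higher and 0 lower became 19 and 6 with the trended prior, 18 and 2 with genes under the median level removed, 2 and 9 with median centring, and 0 and 34 with scaling on the spike-ins. Without 1 array, 1 or 2 subunits were higher and 0 or 1 lower.

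The assembly factors of complex I went mostly the other way. Ndufaf7, a methyltransferase of early assembly, read 8.72 and 8.85 in Npac RNAi against 9.13 and 9.14 in control RNAi (-0.35, SE 0.0626, limma adjusted p = 0.0169). Ndufaf1, which joins the intermediate of the membrane arm, read 10.11 and 10.17 against 10.38 and 10.41 (-0.25, SE 0.0511, limma adjusted p = 0.023). Ndufaf2, a chaperone of late assembly, read 9.66 and 9.73 against 9.94 and 10.04 (-0.29, SE 0.061, limma adjusted p = 0.0244). In each of these the groups were apart, and both Npac RNAi arrays were the lower ones, as in 40.1% of all genes. Ndufaf5, which hydroxylates Ndufs7, and its partner Ndufaf8, both named after their values were seen, were also lower (-0.26 and -0.19). These 5 calls were lost on leaving out arrays, Ndufaf7 excepted without Npac RNAi array 2, and over such fits the differences of the 5 ran from -0.41 to -0.17. Ndufaf3 was the exception and the largest change of the 100 genes. This factor of early assembly read 9.63 and 9.64 in Npac RNAi against 9.07 and 9.01 in control RNAi, a 1.51-fold rise (log2 difference 0.60, SE 0.0481, limma adjusted p = 0.00307). It was measured by 1 probe set, stayed between 0.57 and 0.62 without any 1 array, and was 0.06 and not called with spike-in scaling.

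Complex II, succinate dehydrogenase, is an enzyme of the citric acid cycle with a catalytic head and a membrane anchor. Both anchor genes were lower. Sdhc read 9.75 and 9.78 in Npac RNAi against 10.05 and 10.06 in control RNAi (-0.29, SE 0.0464, limma adjusted p = 0.0133), and Sdhd read 11.19 and 11.24 against 11.45 and 11.47 (-0.25, SE 0.0484, limma adjusted p = 0.0204). Each had a second bright probe set that was lower as well (-0.37 for Sdhc and -0.46 for Sdhd). The head showed no call: the flavoprotein gene Sdha read 11.53 and 11.52 against 11.46 and 11.43 (0.08, limma adjusted p = 0.222), and the iron-sulfur gene Sdhb read 11.80 and 11.77 against 11.73 and 11.78, with overlap (0.03, limma adjusted p = 0.62). A second probe set of Sdha gave -0.25, so the value of Sdha rests on the probe set chosen. The calls on Sdhc and Sdhd were lost without any 1 array (adjusted p from 0.0591 to 0.0944), where their differences stayed between -0.30 and -0.23.

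Complex III, the cytochrome bc1 complex, had 1 called gene of 9 on the deposited values. With the probe set of the largest interquartile range it had 1 higher and 3 lower. Uqcr11, a small accessory subunit, was its called gene, at 11.97 and 12.00 in Npac RNAi against 12.28 on both control RNAi arrays (-0.29, SE 0.0458, limma adjusted p = 0.012). That call was lost without any 1 array, at differences from -0.31 to -0.28. Cyc1, the heme protein that reduces cytochrome c, read 12.58 and 12.60 against 12.62 and 12.60 (-0.02, limma adjusted p = 0.743). Uqcrb, a subunit at the ubiquinone site, read 14.15 and 14.14 against 14.05 and 13.98 (0.13, limma adjusted p = 0.103). The 8 genes without a call lay between -0.15 and 0.13 in the probe sets that represent them. Other bright probe sets went further for Uqcr10 (-0.30 and -0.18) and for Uqcrb (0.18). Their limma adjusted p over all probe sets were 0.0274, 0.182 and 0.0717. Cycs, cytochrome c itself, read 13.35 and 13.43 in Npac RNAi against 13.57 and 13.56 in control RNAi, lower on both arrays but not called (-0.17, SE 0.0535, limma adjusted p = 0.0669). Its other bright probe sets gave -0.35 and -0.10 (limma adjusted p over all probe sets 0.0168 and 0.256), so the lack of a call rests on the probe set chosen.

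**Figure D4:**
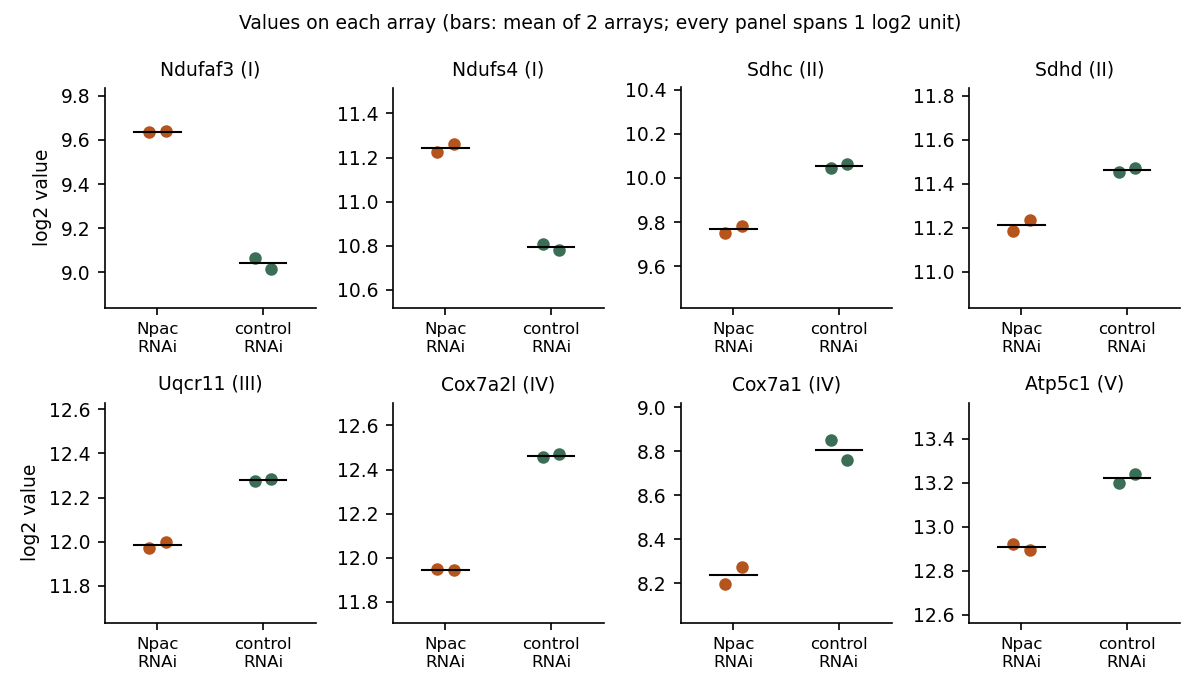
Deposited log2 value of 8 called genes on each array (points) with the group mean (bars), Npac RNAi left of control RNAi, the complex in brackets, and every panel spanning 1 log2 unit. Ndufaf3 and Ndufs4 sit higher on both Npac RNAi arrays and the other 6 genes sit lower, with no overlap between groups in any panel. Over all genes 74.2% had no overlap.

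In complex IV, cytochrome c oxidase, the steadiest difference was in Cox7a2l, also known as SCAFI, which links complexes III and IV into supercomplexes. Cox7a2l read 11.95 and 11.94 in Npac RNAi against 12.46 and 12.47 in control RNAi, a fall to 1.43-fold below the control (log2 difference -0.52, SE 0.0452, limma adjusted p = 0.00352). All 3 of its probe sets were lower, from -0.62 to -0.52, and the call held in each of the 19 alternative settings. Its relative Cox7a1, the isoform of heart and skeletal muscle, read 8.20 and 8.28 against 8.85 and 8.76 (-0.57, SE 0.0616, limma adjusted p = 0.00535). The ubiquitous relative Cox7a2 read 13.49 and 13.47 against 13.57 and 13.54 and was not called (-0.08, limma adjusted p = 0.244). Within this family the groups were apart for each of the 3 genes, and both Npac RNAi arrays were the lower ones. Over all genes 40.1% were apart in that direction.

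The other tissue isoforms of complex IV split. Cox6b2, the testis form, was higher at 9.97 and 10.02 in Npac RNAi against 9.73 and 9.62 in control RNAi (0.32, SE 0.0614, limma adjusted p = 0.0203). Its common form Cox6b1 read 13.33 and 13.32 against 13.16 and 13.18 (0.15, limma adjusted p = 0.0646). Cox8c, the testis form of Cox8, was lower at 8.36 and 8.31 against 8.61 and 8.67 (-0.30, SE 0.0525, limma adjusted p = 0.0157), with a dimmer probe set at 0.02. Neither Cox8a (-0.09) nor the dim muscle form Cox8b (-0.36, SE 0.127, limma adjusted p = 0.0852) was called. Cox7b2 was called lower (-0.38, SE 0.0776, limma adjusted p = 0.0229), at a signal of 7.16, below the median of all genes. The dim forms Cox4i2 (-0.28) and Cox6a2 (-0.29) were not called, nor were the common forms Cox4i1 (0.16, limma adjusted p = 0.0579) and Cox6a1 (0.17, limma adjusted p = 0.054). Leaving out Npac RNAi array 1 gave calls to 3 of the dim forms, Cox4i2 (-0.38), Cox6a2 (-0.49) and Cox8b (-0.52). Both common forms were higher on each Npac RNAi array, at 13.81 and 13.82 against 13.67 and 13.64 for Cox4i1 and at 14.54 on both arrays against 14.40 and 14.33 for Cox6a1.

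Among the remaining genes of complex IV, the subunit gene Cox7c was lower at 7.55 and 7.56 in Npac RNAi against 7.87 and 7.85 in control RNAi (-0.31, SE 0.0456, limma adjusted p = 0.0107). That probe set was near the median of all genes (7.49), and a dimmer probe set of Cox7c gave -0.22. Cox5a, named after its values were seen, was lower by the same size in all 3 of its probe sets (-0.19 to -0.17). Cox19, an assembly factor of the intermembrane space linked to copper, was the called assembly factor of this complex, at 10.16 on both Npac RNAi arrays against 9.96 and 9.90 (0.23, SE 0.05, limma adjusted p = 0.0285). The calls on Cox7c, Cox8c, Cox5a and Cox19 were lost without any 1 array, and of those 4 fits that on Cox6b2 held only without control RNAi array 1 (0.38), and that on Cox7b2 only without control RNAi array 2 (-0.47). Averaging probe sets gave -0.14 for Cox8c. For the 17 complex IV subunits, the 1 higher and 6 lower calls became 4 and 5 with cyclic loess and 5 and 9 with the trended prior. With genes under the 25th percentile of level removed they were 4 and 7, and with those under the median removed 4 and 5 of 13. They were 2 and 3 without moderation and 3 and 5 with probe sets averaged. Median centring gave 0 and 11, and scaling on the spike-ins 0 and 17. Without 1 array, 0 or 1 were higher and 2 to 5 lower.

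Complex V, ATP synthase, has a catalytic F1 head and a membrane rotor, Fo. In the head, Atp5c1, the central stalk subunit gamma, read 12.92 and 12.89 in Npac RNAi against 13.20 and 13.24 in control RNAi (-0.31, SE 0.0478, limma adjusted p = 0.0117). Atp5a1, subunit alpha, read 13.09 and 13.07 against 13.30 and 13.34 (-0.24, SE 0.0472, limma adjusted p = 0.0219). Both were lower on each Npac RNAi array, but a dimmer probe set of Atp5c1 gave 0.03, and the average over probe sets was -0.14 for Atp5c1 and -0.13 for Atp5a1. Atp5g1, Atp5g2 and Atp5g3 encode the same mature subunit c of the rotor ring and 1 of the 3 was called. Atp5g1 read 12.52 on both Npac RNAi arrays against 12.78 and 12.81 (-0.28, SE 0.0458, limma adjusted p = 0.0141). Atp5g3 read 13.82 and 13.79 against 13.97 and 13.93 without a call (-0.14, limma adjusted p = 0.0752), and Atp5g2 read 12.25 and 12.28 against 12.18 and 12.24 (0.06, limma adjusted p = 0.413).

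The 2 ATP synthase genes called higher, Atp5md and Atp5l, encode small membrane subunits. Others of that kind were not called: Atp5k (-0.05), Atp5j2 (-0.09) and Atp5mpl (0.10), named after their values were seen. Atp5md, known as DAPIT, read 11.60 on both Npac RNAi arrays against 11.32 and 11.36 in control RNAi (0.26, SE 0.0468, limma adjusted p = 0.0174). Atp5l, subunit g, read 13.12 on both Npac RNAi arrays against 12.95 and 12.96 (0.16, SE 0.045, limma adjusted p = 0.048). The calls on Atp5a1, Atp5g1, Atp5l and Atp5md were lost without any 1 array, and of those 4 fits that on Atp5c1 held only without Npac RNAi array 1 (-0.33). Over those fits the 3 lower genes stayed between -0.33 and -0.22 and the 2 higher ones between 0.16 and 0.28. The other 12 genes, among them Atp5b for the catalytic subunit beta, named after its values were seen (-0.15, limma adjusted p = 0.0626), were not called and lay between -0.15 and 0.16.

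**Figure D5:**
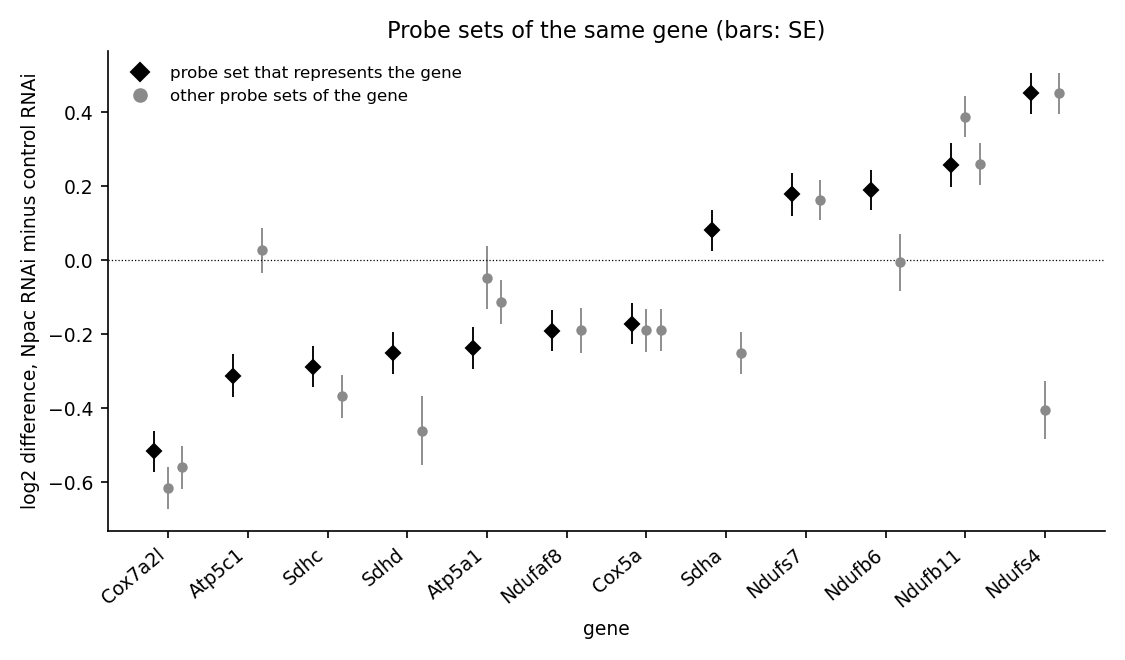
Log2 difference, Npac RNAi minus control RNAi, of every probe set with a signal no lower than the median gene, for the 11 called genes with more than 1 such probe set and for Sdha (diamonds, the probe set that represents the gene; circles, its others; bars, SE). For 8 of the 11 genes all these probe sets have the same sign, and those of Atp5c1, Ndufb6 and Ndufs4 differ in sign, as do those of Sdha.

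Genes around the chain were counted from lists chosen with earlier results of these data known. Their counts stand beside the 22.1% of all genes called higher and 18.7% called lower. Of 33 assembly factors with other names, 8 were higher and 7 lower (median -0.02), both near those shares. The higher ones with the smallest adjusted p were Surf1, a heme-related assembly factor of complex IV (0.67, SE 0.0519), and the copper chaperone Sco1 (0.54, SE 0.09). Sdhaf3, an assembly factor of complex II (-0.43, SE 0.0455), and Dmac1, one of complex I (-0.31, SE 0.0452), were lower. The call on Sco1 was lost without Npac RNAi array 2 (0.49) or control RNAi array 2 (0.44), and that on Dmac1 without any 1 array. Of 23 genes of the citric acid cycle and pyruvate dehydrogenase, 5 were higher and 6 lower (median 0.02). Mpc1, a subunit of the carrier that brings pyruvate into mitochondria, read 10.64 on both Npac RNAi arrays against 9.89 and 9.90 in control RNAi (0.74, SE 0.0452, limma adjusted p = 0.00179). Pdk1, the kinase that switches pyruvate dehydrogenase off, read 9.70 and 9.79 against 10.53 and 10.45 (-0.74, SE 0.0616, limma adjusted p = 0.00319). Ogdh was higher (0.49) and Suclg2 lower (-0.35), and the call on Suclg2 was lost without control RNAi array 2 (-0.34).

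Genes of protein import and membrane organisation gave 2 higher and 10 lower of 33 (median -0.09), with the translocase subunits Timm21 (0.70, SE 0.0514) and Timm17a (0.27, SE 0.0456) higher and Tomm34 (-0.44, SE 0.0532) and Timm8a1 (-0.41, SE 0.0497) lower. Of 12 carriers and proton leak genes 0 were higher and 2 lower: the ADP and ATP exchanger Slc25a5 (-0.26, SE 0.0454) and the dim Slc25a27 (-0.34, SE 0.0488). Upkeep and transcription of the mitochondrial genome gave 4 higher and 3 lower of 15, among them its packaging factor Tfam (-0.29, SE 0.0539) and its RNA polymerase Polrmt (-0.26, SE 0.0569), both lower, and Tefm (0.42, SE 0.0549) and Top1mt (0.28, SE 0.0605), both higher. The calls on Timm17a, Slc25a5, Tfam, Polrmt and Top1mt were lost without any 1 array, that on Tomm34 without control RNAi array 2 (-0.43), and that on Slc25a27 without Npac RNAi array 2 (-0.31) or control RNAi array 2 (-0.32). Of the subunits encoded in the mitochondrial genome 1 was measured, ND5 of complex I, at 11.68 and 11.73 in Npac RNAi against 11.87 and 11.93 in control RNAi, without a call (-0.19, limma adjusted p = 0.0507).

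Of 18 regulators of respiratory genes 6 were higher and 4 lower (median -0.02), where all genes gave 22.1% and 18.7%. Myc, a growth factor-responsive activator of mitochondrial and ribosomal genes, rose most, at 9.43 and 9.56 in Npac RNAi against 8.50 and 8.29 in control RNAi (1.10, SE 0.0927, limma adjusted p = 0.0033). The factors whose motifs were searched went different ways. Gabpa, the DNA-binding part of the ETS factor GABP, was lower (-0.28, SE 0.0561), and its partner Gabpb1 was higher (0.37, SE 0.061). Nrf1 read 9.36 and 9.44 in Npac RNAi against 9.60 and 9.62 (-0.21, SE 0.0535), and Yy1 read 12.77 and 12.76 against 12.56 and 12.47 (0.25, SE 0.0537); both are named because their motifs were searched. Nrf1 turned to 0.29 with the probe set of the largest interquartile range, so its direction is uncertain. Esrrb, an orphan receptor that acts in pluripotency and on respiratory genes, was lower (-0.22, SE 0.0452). The calls on Gabpa, Nrf1, Yy1 and Esrrb were lost without any 1 array, and that on Gabpb1 held only without Npac RNAi array 1.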

How the data were processed

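RNA of 2 Npac RNAi and 2 control RNAi samples was hybridised to single-channel Affymetrix arrays after biotin labelling of cRNA from 5 µg of total RNA. The authors deposited 1 value per probe set and array, taken here as log2 from its range. RMA is named without a version in the submitters' processing notes. No source used here states the software or any further scaling. RMA equalises arrays, so a change shared by most transcripts is removed.

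Of 45101 probe sets, 64 controls, 932 with several symbols and 9160 unnamed ones were left out. Symbols of the other 34945 were updated through Entrez identifiers against RefSeq (GRCm38.p6), which matched 34741. For each of 18193 genes, the probe set whose mean over the 4 arrays was highest was used, with no filter on dim genes. Levels of different probe sets do not rank genes. Differences were tested by limma's lmFit and eBayes (limma 3.58.1, R 4.3.3), with group as the only term and 2 residual and 2.28 prior degrees of freedom, and adjusted by Benjamini-Hochberg over all genes. The procedure was tested on simulated data.

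Members, lists and rules were chosen with earlier results of these data known. In full were named, per complex, up to 3 higher and 3 lower called genes with the smallest adjusted p and the brightest gene, Sdha to Sdhd, Cyc1, Cycs, fixed isoform families, up to 2 assembly factors and up to 2 genes of each further list per direction. Alternatives were other variance moderation, scalings, filters on dim genes, probe set choices, thresholds, the replicate number as a block, each array left out, and members without assembly factors. Replicate arrays correlated at 0.998 in each group. The number of arrays limits the precision.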

Additional observations from a re-analysis of the deposited data

Results flagged for a closer look

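The poly-A spike-ins are foreign transcripts put in ahead of labelling. Used in no comparison above except as a scaling, they read 0.54 higher on the Npac RNAi arrays than on the control RNAi arrays, in 24 of 24 probe sets. The 18 hybridisation control probe sets read 0.12 higher, in 18 of 18. The part of either in the results was not tested.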

How the results depend on the processing

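The count of respiratory genes called higher (13) was 35 with a trended variance prior, 20 with genes under the 25th percentile of level removed, 29 with those under the median removed, 3 after centring, 0 with spike-in scaling, 2 at an adjusted p under 0.01 and 1 with a minimum fold of 1.2. The count called lower (17) was 34 with a trended variance prior, 9 without moderation, 44 after centring, 97 with spike-in scaling, 2 at an adjusted p under 0.01 and 2 with the minimum fold. Without 1 array the counts were 2 to 3 higher and 2 to 7 lower. The median difference (0.00) was -0.14 after centring, -0.54 with spike-in scaling and -0.052 with the probe set of the largest interquartile range, and -0.015 to 0.0078 without 1 array. With the replicate block the counts were 3 higher and 7 lower. The deviations of same-numbered arrays from their group means had a weak negative correlation across genes (r = -0.17). With crossed numbers, a setting chosen after seeing the data, the counts were 7 and 15. Nothing in the labels says that the numbers pair the arrays. Among 73 named genes and 19 settings, 941 of 1381 values kept direction and call, 337 lost a call, 67 gained one and 36 turned. Of those 36, 26 turned with the constant downward shift of spike-in scaling: Sdha (-0.46), Sdhb (-0.51), Cox4i1 (-0.38), Cox6a1 (-0.37), Cox6b1 (-0.39), Cox6b2 (-0.22), Atp5g2 (-0.48), Ndufs4 (-0.089), Ndufa8 (-0.27), Ndufa1 (-0.42), Uqcrb (-0.41), Cox19 (-0.31), Atp5md (-0.28), Atp5l (-0.38), Ndufa13 (-0.37), Ndufb1 (-0.087), Ndufb11 (-0.28), Ndufb6 (-0.35), Ndufs1 (-0.37), Ndufs7 (-0.36), Ogdh (-0.053), Timm17a (-0.27), Tefm (-0.12), Top1mt (-0.26), Gabpb1 (-0.17) and Yy1 (-0.29). Sdha (-0.25) and Nrf1 (0.29) turned with the probe set of the largest interquartile range. The other 8 had no call in either setting: Sdha (-0.059), Sdhb (-0.11), Atp5g2 (-0.084), Ndufa1 (-0.016) and Uqcrb (-0.0094) with centring, Sdha (-0.10) with probe sets averaged, and Cyc1 with quantile normalization (0.0104) and cyclic loess (0.0069). The cause of the other changes was not tested, except that leaving out an array lowers the degrees of freedom.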

Other observations

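The rule leaves out 11 probe sets that name a respiratory gene beside another gene, mostly a pseudogene or a close copy. None was called when p-values were adjusted over all probe sets. The probe set of Ndufa11 and Ndufa11b, a membrane subunit of complex I, read 12.65 and 12.61 in Npac RNAi against 12.42 and 12.47 in control RNAi (0.18, SE 0.0588, limma adjusted p = 0.0797). That of Ndufs6 and Ndufs6b read 11.97 on both Npac RNAi arrays against 11.95 and 12.02 (-0.01), and that of the assembly factor Cox14 and Gm29733 read 11.25 on both against 11.24 and 11.29 (-0.01). Ndufb4, represented above by a dim probe set (5.01), also has 2 bright probe sets shared with its copies, which gave 0.07 and 0.09.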
